A study of Caenorhabditis elegans with 4 samples.

Results

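The C-type lectin genes of *Caenorhabditis elegans*, named *clec-*, were compared between wild-type animals fed *Lactobacillus paracasei* subsp. *paracasei* 2004 (hereafter 2004) and animals fed *Escherichia coli* OP50, the standard laboratory food. The members were all genes of the WBcel235 annotation whose symbol begins with *clec-*. This gave 240 genes of the 46745 genes listed, which carry 237 distinct symbols because 3 symbols each stand on a pair of loci. All 240 were annotated as protein-coding, and 154 of them had at least 1 count in at least 1 sample.

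The animals were of the wild-type strain N2, and no mutant was sequenced. Feeding on either food began 3 days after hatching, at the start of adulthood, and lasted 3 days. The labels name S basal as the culture medium, whereas the methods of the study describe feeding on NGM plates. Total RNA of pooled whole animals was sequenced in 2 samples on OP50 and 2 samples on 2004. The labels do not say whether the samples of a food came from separate cultures. The spread between samples, against which the p-values set a change, may therefore be technical.

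Library totals lay between 44548901 and 50504029 counts, so that 3 counts in a library, the floor used for a gene at 0, equalled 0.0594 to 0.0673 CPM, the count scaled to a library total of 1000000. Markers of the whole animal were present: all 13 measured intestinal genes, all 12 germline genes, all 10 neuronal genes and all 10 body-wall muscle genes had counts in the libraries, whereas the sperm genes summed to between 2.33 and 7.80 CPM. A gene entered the test when it reached 0.5 CPM in at least 2 samples, which left 12505 genes. It was called higher or lower on 2004 at an adjusted p under 0.1 by edgeR's quasi-likelihood test together with a change of more than 2-fold.

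C-type lectin domains are protein folds that in many animals bind sugars with the help of calcium, although many nematode members are not known to bind any. In *C. elegans* the family is unusually large, most members are predicted to be secreted or membrane-bound, and many are expressed in the intestine. Several members are induced when the animals are infected with pathogenic bacteria, and a number of them serve as readouts of the p38 mitogen-activated protein kinase PMK-1, a central kinase of nematode innate immunity. Different pathogens induce different members, and for most members no individual function is known.

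The family split in both directions on 2004. Of the 82 members tested, 14 were called higher and 26 lower, and 42 were not called. Those calls made up 48.8% of the tested members, against 22.4% of all genes tested. The lower calls made up 31.7% of the tested members against 14.8% of all genes, and the higher calls 17.1% against 7.55%. The 26 lower genes carry 25 symbols, since *clec-209* was counted at both of its loci. The median log2 fold change (2004 over OP50) was -0.38 over the tested members and -0.03 over all genes tested. Neither share nor median was tested against other genes. When the test itself was made against a 2-fold change, 7 members were higher and 17 lower, and when transcripts were tested one by one 8 members had a transcript called higher. With either 2004 sample left out and the filter applied anew, 9 members were higher, since 5 no longer reached the filter in enough samples.

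The genes called lower were *clec-1*, *clec-3*, *clec-5*, *clec-41*, *clec-57*, *clec-67*, *clec-83*, *clec-86*, *clec-97*, *clec-146*, *clec-149*, *clec-150*, *clec-169*, *clec-173*, *clec-174*, *clec-178*, *clec-186*, *clec-187*, *clec-190*, *clec-209* at both loci, *clec-210*, *clec-218*, *clec-221*, *clec-264* and *clec-265*. The genes called higher were *clec-12*, *clec-45*, *clec-47*, *clec-53*, *clec-55*, *clec-80*, *clec-125*, *clec-140*, *clec-163*, *clec-172*, *clec-196*, *clec-204*, *clec-205* and *clec-266*. In all 40 called members both 2004 samples lay on 1 side of both OP50 samples, where 71.2% of all genes tested did so. The calls came from these same samples, so this separation follows largely from the calls and is no added support. *clec-45*, *clec-55*, *clec-140*, *clec-163* and *clec-172* passed the filter only through the 2004 samples. *clec-3*, *clec-57*, *clec-174* and *clec-221* passed it only through the OP50 samples. Both 2004 samples lay below both OP50 samples in 34 of the 82 tested members, against 4214 of the 12505 genes tested (33.7%). They lay above them in 19 of the 82, against 4691 of the 12505 (37.5%). The samples of the foods overlapped in the other 29 members.

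**Figure D1:**
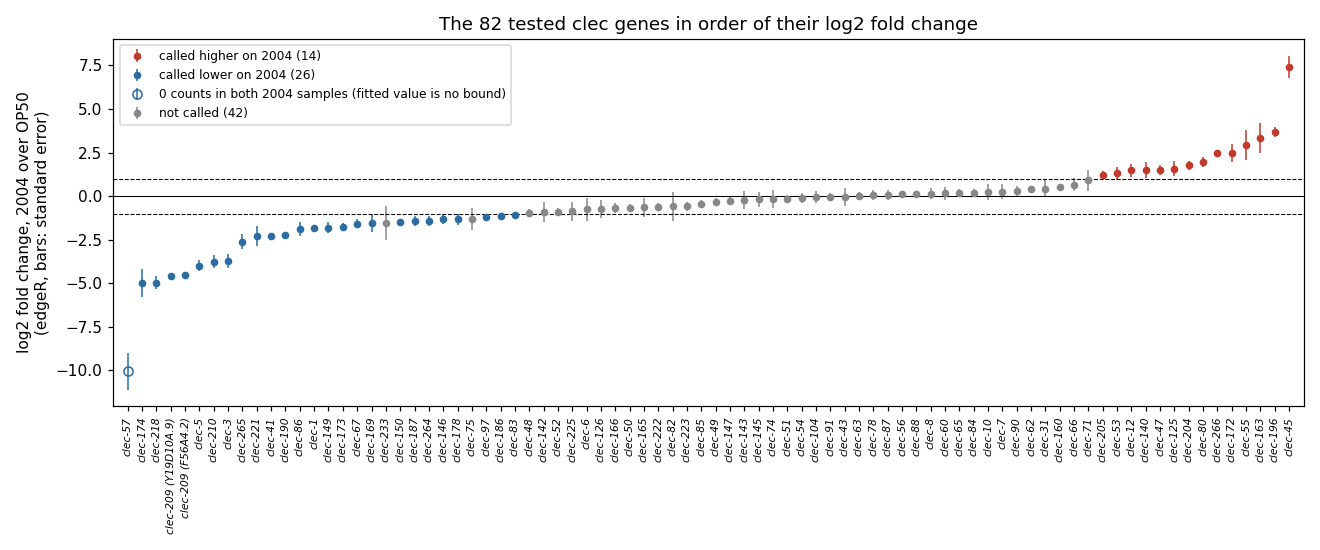
Log2 fold change (2004 over OP50) of the 82 tested clec genes in rank order, with bars of 1 standard error and colours for the call. The 26 genes called lower run from -1.06 downwards, the 14 called higher from 1.20 upwards, and the 42 uncalled genes lie between -1.51 and 0.91.

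A large loss was seen in *clec-209*. This symbol stands on 2 loci of chromosome V, 1 at 2351676 to 2352932 (Y19D10A.9) and 1 at 2459637 to 2460893 (F56A4.2), both on WBcel235. Y19D10A.9 had 9781 and 11652 counts on OP50 and 496 and 415 on 2004. F56A4.2 had 10027 and 11944 counts on OP50 and 512 and 440 on 2004. The loci had nearly equal counts in every library, and how reads shared by both were divided is not given in the sources used here, so the level and the change of each locus taken alone are uncertain. Summed over the loci, *clec-209* stood at 445 and 467 CPM on OP50 and at 21.7 and 18.5 CPM on 2004, a 22.7-fold lower mean. The log2 fold changes were -4.57 (SE 0.15) for Y19D10A.9 and -4.54 (SE 0.15) for F56A4.2, each with an edgeR adjusted p of 5.4e-08.

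Counts of *clec-57* (chromosome V, 14469231 to 14472448) were detected in the OP50 libraries and not in the 2004 libraries. It had 77 and 197 counts in the OP50 libraries and 0 in both 2004 libraries. Its mean was therefore at least 43.5-fold lower on 2004, with 3 counts per library as the floor for the 2004 samples (edgeR adjusted p = 0.000115). No other member had 0 counts in both samples of a food and at least 50 in each sample of the other. *clec-174* came near to it, with 57 and 110 counts on OP50 and 5 and 0 on 2004.

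Among the members with at least 1 CPM on average, 5 others fell by more than 6-fold. *clec-218* (chromosome V, 8307942 to 8310766) had 11.4 and 22.3 CPM on OP50 and 0.690 and 0.410 CPM on 2004. Its log2 fold change was -4.97 (SE 0.36, edgeR adjusted p = 7.77e-06), and its OP50 samples differed from each other more than its 2004 samples did in CPM. *clec-5* (chromosome III, 4881888 to 4883606) had 36.9 and 62.5 CPM on OP50 and 2.20 and 4.10 CPM on 2004, a log2 fold change of -3.998 (SE 0.31, edgeR adjusted p = 1.15e-05). *clec-210* had 274 and 452 counts on OP50 and 35 and 18 on 2004 (log2 fold change -3.77, SE 0.37). *clec-3* had 146 and 224 counts on OP50 and 13 and 15 on 2004 (log2 fold change -3.70, SE 0.41). *clec-265*, on the X chromosome, had 260 and 719 counts on OP50 and 54 and 98 on 2004 (log2 fold change -2.62, SE 0.43). In each of these both OP50 samples lay above both 2004 samples.

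Members that were abundant on OP50 were also among those that fell. *clec-1* (chromosome V, 5700154 to 5701080) had 7396 and 11900 counts on OP50 and 2828 and 2533 counts on 2004 (log2 fold change -1.84, SE 0.15, edgeR adjusted p = 1.79e-05). *clec-41* (chromosome V, 13134903 to 13138101) stood at 121 and 141 CPM on OP50 and at 23.6 and 32.0 CPM on 2004 (log2 fold change -2.27, SE 0.18, edgeR adjusted p = 1.16e-05). *clec-190* stood at 47.2 and 73.3 CPM on OP50 and at 14.6 and 12.1 CPM on 2004 (log2 fold change -2.21, SE 0.17). For each of them the gap between the foods exceeded the gap between the samples of a food. The smallest of the lower calls was *clec-83*, at a log2 fold change of -1.06 (SE 0.17). It had 40.2 and 62.6 CPM on OP50 and 25.0 and 25.4 CPM on 2004.

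The rise of *clec-45* (chromosome V, 7638101 to 7638657) was the largest of the 14. It had 4 and 0 counts on OP50 and 332 and 413 counts on 2004, which is 7.16 and 8.91 CPM (edgeR adjusted p = 1.96e-05). The gene was thus nearly absent from the OP50 libraries, and its fitted log2 fold change of 7.44 (SE 0.63) depends on the prior count of the fit. *clec-196* (chromosome IV, 17276956 to 17277748) rose from 39 and 65 counts on OP50 to 804 and 554 counts on 2004 (log2 fold change 3.70, SE 0.29, edgeR adjusted p = 1.05e-05).

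*clec-266* and *clec-47* were the abundant members that rose. *clec-266* (X chromosome, 6617393 to 6622915) had 919 and 973 counts on OP50 and 6078 and 4589 counts on 2004, a log2 fold change of 2.47 (SE 0.15, edgeR adjusted p = 3.35e-06). It shares 371 of its 3036 exonic bases with *kqt-1*, a potassium channel gene on the opposite strand, and without a stated strand setting reads of these bases cannot be assigned. *clec-47* (chromosome V, 15175759 to 15176324) had 20.8 and 53.0 CPM on OP50 and 97.9 and 114 CPM on 2004 (log2 fold change 1.51, SE 0.29, edgeR adjusted p = 0.00302). Its OP50 samples differed from each other by more than its 2004 samples did, and both stayed below them.

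The other higher calls were at low levels. *clec-80* had 71 and 83 counts on OP50 and 268 and 336 on 2004 (log2 fold change 1.96, SE 0.30). *clec-204* had 90 and 116 counts on OP50 and 337 and 369 on 2004 (log2 fold change 1.77, SE 0.27). *clec-205* was the smallest rise, from 3.97 and 4.85 CPM to 10.1 and 10.8 CPM (log2 fold change 1.20, SE 0.23). *clec-12*, *clec-53* and *clec-125* lay between 0.516 and 1.11 CPM on OP50 and between 2.07 and 3.37 CPM on 2004. *clec-55* and *clec-163* had 0 counts in OP50 replicate 1 and at most 10 in OP50 replicate 2, against 33 to 47 on 2004. *clec-140* shares 560 of its 2695 exonic bases with *hmg-11*, a gene on the same strand, so its call (log2 fold change 1.51, SE 0.47) is uncertain.

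**Figure D2:**
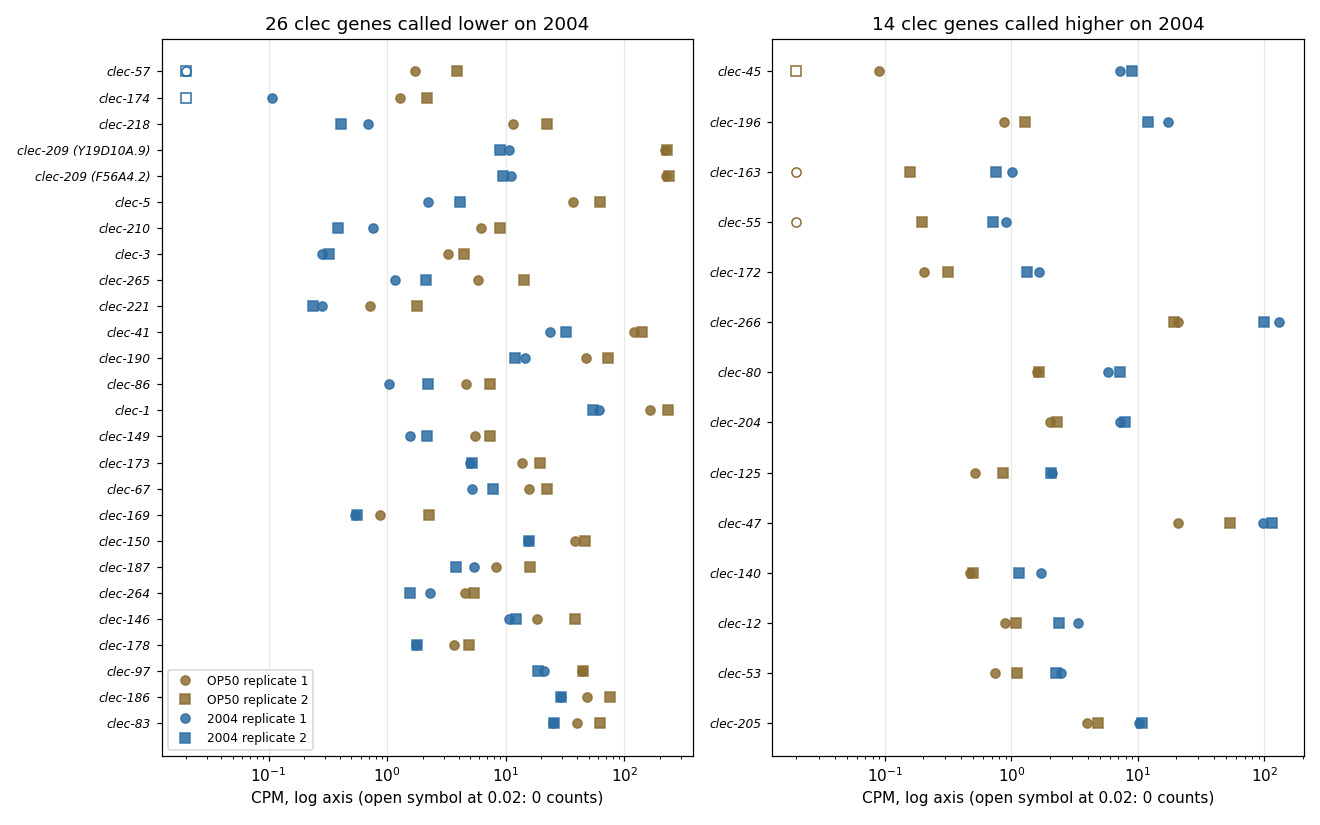
CPM of each called clec gene in each of the 4 samples on a log axis, with OP50 in brown and 2004 in blue, circles for replicate 1 and squares for replicate 2, and open symbols at 0.02 for 0 counts. Within every gene both 2004 points lie on the same side of both OP50 points, with clec-57 at 0 on 2004 and clec-45 near 0 on OP50.

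Most of the family's transcripts came from genes that were not called. *clec-87* alone held 50.02% of all counts assigned to the family, and with *clec-63*, *clec-91* and *clec-88* it held 74.7%. On the scale of TPM, in which a library again sums to 1000000 and which divides by exonic length so that genes can be compared, *clec-87* averaged 3553 TPM over the 4 samples, *clec-63* 662, *clec-91* 564 and *clec-88* 286. *clec-87* stood at 3533 and 2898 TPM on OP50 and at 3785 and 3997 TPM on 2004 (log2 fold change 0.07, SE 0.29). It shares 138 of its 960 exonic bases with *iars-2* on the opposite strand, and reads of these bases cannot be assigned without a stated strand setting. *clec-63* stood at 531 and 701 TPM on OP50 and at 617 and 801 TPM on 2004 (log2 fold change 0.04, SE 0.23). For *clec-91* and *clec-88* the log2 fold changes were -0.04 (SE 0.20) and 0.13 (SE 0.16). The samples of the foods overlapped for each of these 4 genes, and no difference was detectable at this spread between replicates, which is not evidence that the levels were equal.

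With its loci summed, *clec-209* averaged 293 TPM, near *clec-88*, and after it came *clec-1* (188 on average), *clec-47* (161), *clec-50* (152) and *clec-62* (65.0). The order depended on the food. *clec-209* had 537 and 580 TPM on OP50 and 29.7 and 24.6 TPM on 2004, and *clec-1* had 232 and 339 TPM on OP50 and 96.5 and 84.2 TPM on 2004, whereas *clec-47* had 43.1 and 113 TPM on OP50 and 229 and 260 TPM on 2004. *clec-50* was at 180 and 175 TPM on OP50 and 109 and 145 TPM on 2004. It passed the p threshold but not the 2-fold threshold (log2 fold change -0.66, SE 0.19, edgeR adjusted p = 0.0191). *clec-62* had an adjusted p of 0.078 by edgeR at a log2 fold change of 0.43 (SE 0.18), also under 2-fold.

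**Figure D3:**
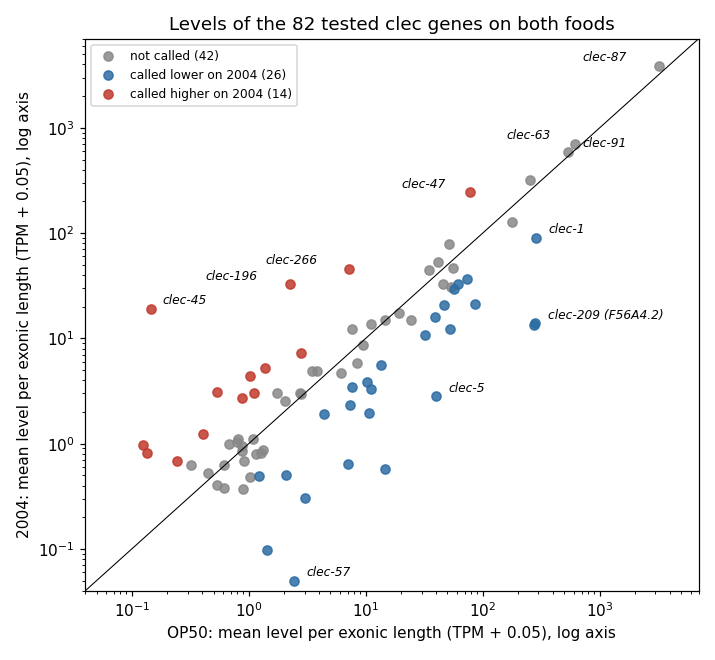
Mean level per exonic length (TPM plus 0.05, log axes) of the clec genes on OP50 against 2004, coloured by call. The uncalled genes include clec-87 at the top, while the clec-209 loci and clec-57 lie far below the diagonal and clec-45 and clec-196 far above it.

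The family total changed less than its parts. Summed over the 240 members the counts came to 6195 and 6207 CPM on OP50 and to 5454 and 5905 CPM on 2004, a ratio of 0.916. Without *clec-87* the sums were 3040 and 3694 CPM on OP50 and 2471 and 2671 CPM on 2004, a ratio of 0.764. The 26 lower genes summed to 1092 and 1391 CPM on OP50 and to 251 CPM in each 2004 sample, which lowered their share of the family's CPM from 20.02% to 4.42%. Without *clec-209* the lower genes still summed to 647 and 923 CPM on OP50 against 229 and 233 CPM on 2004. The 14 higher genes summed to 52.8 and 86.6 CPM on OP50 and to 290 and 270 CPM on 2004, a share of 1.12% that became 4.93%. These sums follow from the calls and describe their size only.

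Members named in studies of infection were examined as a list of 14. Of these, 9 were tested, 3 were called lower and 0 higher by edgeR, where 14.8% of all genes tested were lower and 7.55% higher. Their log2 fold changes had a median of -0.43, against -0.03 over all genes tested, which became 0.07 without OP50 replicate 2, with the same 3 genes called lower. The lower genes were *clec-41*, *clec-67* and *clec-86*. *clec-67*, used as a reporter of PMK-1 activity, had 706 and 1122 counts on OP50 and 239 and 362 on 2004 (log2 fold change -1.58, SE 0.26, edgeR adjusted p = 0.0011). *clec-86* had 206 and 374 counts on OP50 and 48 and 102 on 2004 (log2 fold change -1.91, SE 0.40, edgeR adjusted p = 0.00452). It shares 63 of its 599 exonic bases with *alh-10* on the opposite strand.

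The other infection-linked members showed no call. *clec-60*, which is induced by *Staphylococcus aureus* and *Microbacterium nematophilum*, had 3.23 and 6.30 CPM on OP50 and 7.85 and 3.17 CPM on 2004, so that both OP50 samples lay between those of 2004 (log2 fold change 0.16, SE 0.40). *clec-85*, a further PMK-1-dependent gene, had 62.9 and 84.3 CPM on OP50 and 44.2 and 67.5 CPM on 2004 (log2 fold change -0.43, SE 0.21, edgeR adjusted p = 0.122). It shares 397 of its 1434 exonic bases with Y54G2A.40 on the same strand. *clec-49*, linked to defence against *Serratia marcescens*, had 583 and 1222 counts on OP50 and 737 and 666 on 2004 (log2 fold change -0.33, SE 0.23). *clec-7*, *clec-71* and *clec-82* had at most 72 counts in a library, and their samples overlapped between the foods except for *clec-71*, which had 0.202 and 0.515 CPM on OP50 and 0.885 and 0.518 CPM on 2004. *clec-39* and *clec-42* had 0 counts in the 4 libraries, which allows up to 0.0673 CPM by counting error. *clec-4*, *clec-61* and *clec-70* had at most 16 counts in a library and were not tested.

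Many members lie beside each other in the genome, where arrays of related genes are common in this family. With members no more than 10 kb apart joined, 155 members fell into 47 clusters and 85 stood alone, and the largest cluster held 13. Of the 15 clusters with at least 2 tested members, 10 held a call. Only lower calls were found in 6 of these, only higher calls in 2 and both in 2, and no test was made of whether neighbours moved together.

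Neighbours with opposite calls stood on chromosomes IV and V. In the cluster of *clec-57*, *clec-227*, *clec-56*, *clec-54* and *clec-55* (chromosome V, 14469231 to 14482317), *clec-57* was lost on 2004 and *clec-55* rose. Between them *clec-56* (log2 fold change 0.11, SE 0.21) and *clec-54* (-0.12, SE 0.30) were not called. In the cluster on chromosome IV from 2823746 to 2855456, *clec-80* rose and *clec-83* fell, while *clec-82*, *clec-84* and *clec-85* were not called.

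Other neighbours had like calls. *clec-204* and *clec-205* on chromosome V were both higher, and *clec-186* and *clec-187* on chromosome IV were both lower (log2 fold changes -1.11, SE 0.16, and -1.44, SE 0.29). The cluster of *clec-62* to *clec-66* on chromosome II held no call among its 4 tested members, which lay between 0.04 and 0.65 on the log2 scale. In the 11-member cluster on chromosome IV that begins with *clec-67*, 5 members were tested, of which *clec-67* and *clec-174* were lower.

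**Figure D4:**
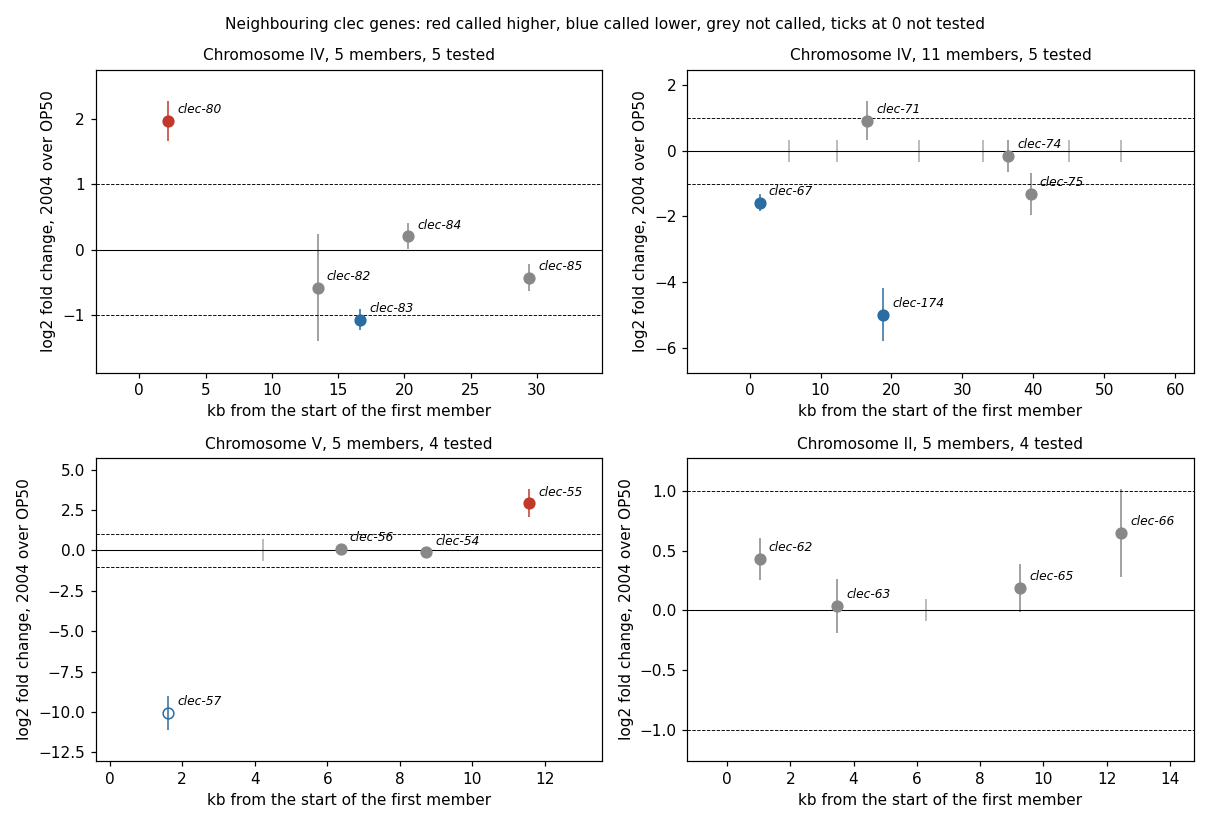
Log2 fold change (2004 over OP50, with 1 standard error) of neighbouring clec genes in 4 clusters, by distance in kb from the first member, with grey ticks at 0 for members not tested, dashed lines at 2-fold and an open circle for clec-57, whose fitted value is no bound. Opposite calls stand in the clusters of clec-80 and of clec-57, and no call stands in the cluster of clec-62.

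By chromosome, lower calls were most numerous on IV and V, where most members lie. On chromosome V, 25 of 86 members were tested, with 5 higher and 9 lower. On chromosome IV, 23 of 53 were tested, with 3 higher and 9 lower. On chromosome II, 18 of 48 were tested, with 2 higher and 2 lower. Chromosome I held 36 members but only 7 tested, with 2 higher and 1 lower. On chromosome III, 6 of 14 were tested, with 1 higher and 3 lower, and on X all 3 members were tested, with 1 higher and 2 lower.

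The 158 members not tested were at or near the limit of detection. Of them, 86 had 0 counts in the 4 samples, and 72 had counts, of which 27 had counts in only 1 sample. Together they came to between 7.83 and 16.2 CPM per library. *clec-258* had 78 counts in OP50 replicate 2 and 0 elsewhere, which is 1 library and no difference between foods. *clec-15*, which like *clec-209* stands on a pair of loci, had 4 counts at each locus in OP50 replicate 1 only.

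The p38 cascade that acts upstream of several infection-linked members was measured in 7 genes, all tested. Only *tir-1*, the adaptor at the top of the cascade, was called, where 7.55% of all genes tested were higher and 14.8% lower. It rose from 27.8 and 37.1 CPM on OP50 to 74.3 and 66.8 CPM on 2004 (log2 fold change 1.07, SE 0.13). *vhp-1* (log2 fold change -0.70), *nsy-1* (0.69) and *atf-7* (0.47) passed the p threshold but not the 2-fold threshold. Their edgeR adjusted p-values were 0.00398, 0.0121 and 0.0183. *pmk-1* itself had 360 and 421 counts on OP50 and 550 and 412 on 2004 (log2 fold change 0.28, SE 0.22, edgeR adjusted p = 0.329). *tir-1* was not called without OP50 replicate 1.

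Of the 9 genes of the DBL-1 pathway, a transforming growth factor beta pathway that also acts in immunity, 2 were lower and 0 higher by edgeR, against 14.8% of all genes lower. These were the ligand *dbl-1*, with 189 and 192 counts on OP50 and 117 and 74 on 2004 (log2 fold change -1.03, SE 0.33), and the Smad gene *sma-2* (-1.24, SE 0.40). With 2004 replicate 2 left out neither *dbl-1* nor *sma-2* was called. Under 2-fold but past the p threshold were *daf-4*, which was higher (0.80, edgeR adjusted p = 0.00108), and 3 lower genes. These were *sma-4* (-0.86), *crm-1* (-0.52) and *sma-6* (-0.86), with edgeR adjusted p-values of 0.0141, 0.0238 and 0.0522. Among 10 immune transcription factor genes only *sta-2* was called (log2 fold change -1.53, SE 0.42), and not without OP50 replicate 2. *daf-16* (log2 fold change 0.58, SE 0.15, edgeR adjusted p = 0.0126) passed the p threshold but not the 2-fold threshold. The same held for *hsf-1* (0.68), *nhr-86* (0.47), *zip-2* (-0.65) and *hlh-30* (-0.27). Their edgeR adjusted p-values were 0.00481, 0.0548, 0.00903 and 0.0982.

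Calls in other sugar-binding and antibacterial families stand beside the 14.8% of all genes called lower and the 7.55% called higher. The galectins, another lectin family, had 4 of 12 genes lower and 0 higher by edgeR, with a median log2 fold change of -0.57: *lec-3* (-1.71, SE 0.19), *lec-4* (-1.63, SE 0.13), *lec-5* (-1.42, SE 0.13) and *lec-9* (-1.30, SE 0.16). The lysozymes, enzymes that cleave bacterial cell walls, also had calls in both directions, with 5 of 12 tested genes higher and 3 lower. *lys-4* had 2091 and 6289 counts on OP50 and 32248 and 29029 on 2004 (log2 fold change 2.93, SE 0.33), whereas *lys-7* had 39384 and 60174 counts on OP50 and 4462 and 6480 on 2004 (-3.16, SE 0.26). *ilys-3*, an invertebrate-type lysozyme, had 12 counts in each OP50 sample and 338 and 333 on 2004 (4.78, SE 0.36).

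In RNA of whole animals, fewer cells of a type and less RNA per cell cannot be told apart. The muscle marker list moved between the foods: 8 of 10 genes were lower on 2004, with a median log2 fold change of -1.45, and the list summed to 1928 and 1803 CPM on OP50 and to 712 and 631 CPM on 2004. Neuronal markers had 3 of 10 genes lower (median -0.73) and the pharyngeal ones 1 of 6 tested (median -0.85). With DESeq2 or with scaling by library size alone, 2 neuronal genes were lower. With library size alone, 0 pharyngeal genes were. Over all genes tested 14.8% were lower and 7.55% higher. The germline markers had 0 of 12 genes called (median 0.19). Higher calls were 2 of 7 tested embryo markers (median 0.67) and 1 of 6 epidermal ones (median 0.47). Lower calls were 1 of 8 sheath and spermatheca markers (median -0.24) and 1 of 3 tested sperm markers (median -1.23). The intestinal markers, from the tissue where many members are expressed, had 4 of 13 genes higher and 1 lower (median 0.40). They summed to 59862 and 66874 CPM on OP50 and to 58981 and 67256 CPM on 2004, so these sums overlapped. Most of each sum came from *vit-2* (30300 to 38106 CPM per library) and *vit-6* (23321 to 28786 CPM), which were not called. The sums therefore say little about the other intestinal markers. Among those, *cpr-1* (log2 fold change 3.29), *vha-6* (1.84), *pho-1* (1.08) and *asp-1* were called higher and *ftn-1* (-3.78) lower. The part of these shifts in the *clec* results was not tested.

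The OP50 samples differed from each other more in this family than over all genes. The median log2 ratio of OP50 replicate 2 over replicate 1, on the scale of log2(CPM + 0.5), was 0.41 over the 82 tested members and 0.18 over all genes tested, and replicate 2 was the higher in 73 of the 82. It was 0.55 over the 26 lower members, all of which were higher in replicate 2, and 0.36 over all genes called lower. The 2004 samples had a median ratio of -0.01 in the members and -0.12 over all genes. All these ratios use library totals alone. The TMM scaling factors of the edgeR fit, 0.93 and 1.04 for OP50 replicates 1 and 2, would lower the OP50 ratios. How many of all genes were higher in OP50 replicate 2 was not counted. Without OP50 replicate 2, in a fit to the same genes, 20 of the 26 lower calls and all 14 higher calls remained. The calls lost were *clec-83*, *clec-146*, *clec-169*, *clec-186*, *clec-187* and *clec-221*. Without 2004 replicate 1, *clec-83* and *clec-140* were lost, and without either of the other samples no call was.

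**Figure D5:**
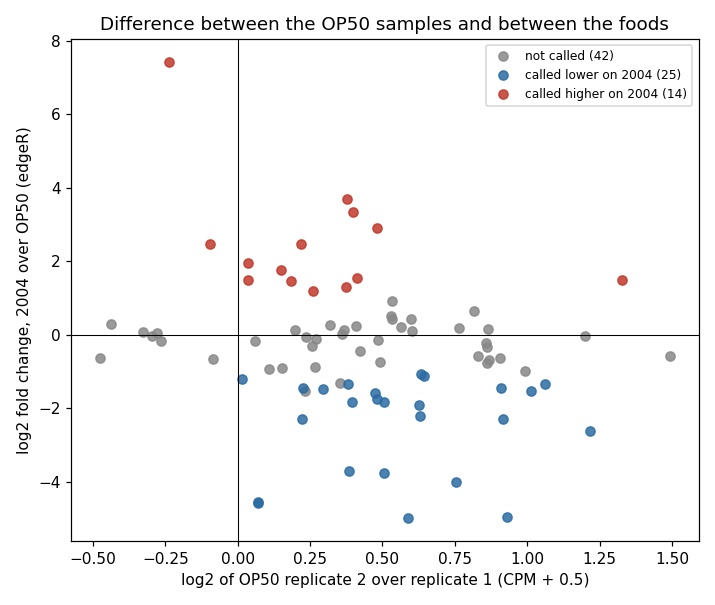
Log2 ratio of OP50 replicate 2 over replicate 1, computed on CPM plus 0.5, against the log2 fold change (2004 over OP50) for the tested clec genes but clec-57, coloured by call. All lower genes lie at positive ratios, as do 12 of the 14 higher genes and 35 of the 42 uncalled genes.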

How the data were processed

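The deposited table held whole-number read counts per transcript, which the authors made, per the labels, with FastQC 0.11.8, Trim Galore 0.6.4, HISAT2 2.1.0, SAMtools 1.7 and StringTie 2.1.1 on WBcel235. StringTie derives its counts from coverage. The annotation release and strand setting are not given in the sources used here. Counts were summed per sequence name and joined to the Ensembl 115 annotation, where 57518 of 57834 transcripts matched. Levels were given as CPM of the library total and as TPM from exonic length.

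Genes with at least 0.5 CPM in at least 2 of the 4 samples were fitted with edgeR 4.0.16 (TMM, quasi-likelihood test, R 4.3.3) and p-values were adjusted over all 12505 genes by the Benjamini-Hochberg method. Calls needed an adjusted p under 0.1 and over 2-fold, the thresholds that the study used. The common replicate numbers mark no stated batch and were not used as a block. The alternatives were DESeq2 1.42.0, limma-voom 3.58.1, other scalings and filters, stricter thresholds, a replicate block, transcripts and leaving out each sample. The scripts were tested on simulated data.

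Members and gene lists were chosen with earlier results of these data known. Values in every sample were given for called members with large changes and at least 1 CPM, the 10 highest per length, the infection-linked list and members at 0 on 1 food. Values of further members (*clec-15*, *clec-54*, *clec-55*, *clec-56*, *clec-83*, *clec-140*, *clec-163*, *clec-174*, *clec-186*, *clec-187* and *clec-258*) and of the single genes of other lists that were not called were added after being seen. Protein and promoter sequences were not analysed here.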

Additional observations from a re-analysis of the deposited data

How the results depend on the processing

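With DESeq2, limma-voom, RLE or library-size scaling, looser filters and an adjusted p under 0.05, all 14 higher and 26 lower *clec* calls were kept. Under the test against 2-fold itself (glmTreat), 7 members were higher and 17 lower, and 333 and 670 of all genes. With each transcript tested alone, 8 members had a transcript called higher, and 1112 of all genes had a transcript called lower. Adjusted p-values could be much larger there. All counts of *clec-41* stood in a single transcript, whose edgeR adjusted p was 0.0464, against 1.16e-05 for the gene. With a minimum of 10 counts in every sample, 10 and 24 calls were kept and the others were not tested. Leaving out each sample in turn, with the filter applied anew or the genes tested kept the same (the latter chosen after seeing the data), gave 9 to 16 higher and 18 to 30 lower members, 658 to 988 higher and 1246 to 2030 lower genes over all, and a median of the members from -0.57 to -0.19. The fewest higher members came without 2004 replicate 1 or 2 under the filter applied anew, when 5 of the called members were not tested. The fewest lower members came without OP50 replicate 2 under that filter. There 4 of the lower members were not tested, while *clec-83*, *clec-146*, *clec-169* and *clec-186* were tested and not called. The lone sample of a food was assumed to vary like the other group. With the filter applied anew, the log2 fold change ran from -0.27 to 0.196 for *clec-91*, -0.541 to 0.66 for *clec-60*, -0.226 to 0.29 for *clec-63*, -0.173 to 0.328 for *clec-87*, -0.66 to 0.0527 for *clec-49*, and -0.0077 to 0.53 for *clec-7*. With the genes kept the same it ran from -0.25 to 0.221 for *clec-91*, -0.555 to 0.64 for *clec-60*, -0.243 to 0.28 for *clec-63*, -0.152 to 0.35 for *clec-87*, -0.64 to 0.0733 for *clec-49*, -0.0215 to 0.52 for *clec-7* and -1.38 to 1.68 for *clec-82*. These ranges cross 0, and none of these genes was called in the main comparison. Within them the sign also turned for *clec-63* (-0.0486), *clec-60* (-0.168), *clec-91* (0.0262) and *clec-87* (-0.0373) in at least 1 further refit to the same genes. With library size alone *clec-91* was at 0.0218. The cause was not tested.

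The replicate block gave 14 higher and 28 lower members, adding *clec-75* and *clec-233*, and 923 and 1785 of all genes. Deviations of same-numbered samples correlated at -0.14, so a crossed pairing was added after seeing the data, which gave 14 and 26 members. With 2 samples per food, the changes of *clec-75* and *clec-233*, over 2-fold at low counts, were not called in the main fit. Without the block, limma-voom also called both of them lower.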

Other observations

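Some members below the filter had counts mostly on 1 food and were called only when the filter was loosened or removed. *clec-161* had 19 and 34 counts on OP50 and 0 and 3 on 2004. On OP50 *clec-25* and *clec-35* were at 0 counts, and on 2004 they had 18 and 12 and 10 and 16 counts in the samples. *clec-9* had 4 and 8 counts on OP50 and 45 and 14 on 2004. *clec-258* was also called lower under these filters, although its 78 counts stood in 1 library, OP50 replicate 2. These genes were named after their values were seen.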
